A study of Mus musculus with 12 samples.

Results

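The 55 genes described here lie on the proximal stretch of mouse chromosome 14. They were taken by symbol from the deposited count table, as a named list of genes from about the first 40 Mb of the chromosome, and all 55 of 55 symbols were found among the 31641 genes of the table. On GRCm38 the first gene (Pxk) starts at base 8098211 and the last (Bmpr1a) ends at base 34503341. The list did not use any measured value as a threshold, but it was drawn up with earlier results of these libraries known, so its common direction is given as a description.

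RNA-seq was run on 4 mouse embryonic stem cell lines. Mut-1 and Mut-2 carried the Tin2 S341X genotype, a premature stop in the shelterin protein that the gene Tinf2 encodes, and WT-1 and WT-2 were wild type. All 4 lines were C57BL/6 cells derived from blastocysts and were grown on mouse embryonic fibroblast feeders in serum with LIF. Each line gave 3 libraries, which the series' design text calls technical replicates, so the line was the unit for the genotype (2 against 2), and p-values between single lines measure only the spread between libraries of those lines.

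Mouse chromosome 14 is acrocentric, so its proximal genes are those nearest the centromere. Neighbouring genes on a chromosome need not share a function, and these 55 code for proteins as different as a Wnt ligand, a ribosomal protein and a proteasome subunit. Many are subunits of complexes whose other parts are made from genes on other chromosomes. In embryonic stem cells the BMP receptor Bmpr1a, the chromatin regulators Kat6b, Pbrm1 and Bap1 and the nucleolar protein Gnl3 (nucleostemin) belong to the regulatory and growth machinery of the pluripotent state, whereas the metabolic enzymes Tkt, Pdhb and Glud1 serve general metabolism.

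The library totals ran from 14766477 to 17891894 counts, and the line totals from 47284654 to 52074216. Tinf2 itself, which lies outside the members' interval at chr14:55674689-55681820, was measured at 19.7 to 30.1 CPM (counts scaled to a common library size, with TMM factors) in the 6 mutant libraries and at 57.7 to 69.2 CPM in the 6 wild-type libraries, so the labels and this gene go together. All 12 markers of embryonic stem cells were present, the lowest at a mean of 107 CPM, and together they made up 0.641 to 0.768% of counts in mutant libraries and 0.705 to 0.780% in wild-type libraries. Of the 36 feeder fibroblast markers in the table none was at 0 in all libraries, and they made up 0.963 to 2.08% of counts in mutant libraries and 0.884 to 1.19% in wild-type libraries. By line the feeder share was 1.38% in Mut-1 and 1.62% in Mut-2, against 1.03% in WT-1 and 1.07% in WT-2 (1.5 ± 0.174% and 1.05 ± 0.0319%, SD, n = 2 lines each; exact two-sided permutation test over lines, p = 0.333, the smallest that 2 against 2 allows). In these bulk libraries fewer cells of a type and less RNA per cell cannot be told apart. WT-1 replicates 1 and 2 were much closer to each other than any other pair of libraries of a line, with a chi-square per degree of freedom of 1.66 against 12 to 42.5, but still differed by more than sampling noise and were kept as separate libraries.

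As a group the 55 genes sat slightly higher in the mutant lines. In the line totals 54 of 55 genes (98.2%) had a positive log2 fold change, mutant against wild type, and their median was 0.25, a 1.19-fold difference, with quartiles of 0.17 and 0.34. Over all 18749 genes tested, 49.8% had a positive value and the median was 0.0, with quartiles of -0.16 and 0.24. The one member with a negative value was Nt5dc2, at -0.11. The difference was spread over the members: the smallest positive value was 0.02 (Tkt), and the largest among genes of at least 1 CPM was 0.72 (Wnt5a).

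None of the 55 genes passed the threshold in the line totals, in either direction (edgeR quasi-likelihood test, Benjamini-Hochberg adjusted p under 0.05 over all genes tested). With 2 lines a side no gene of the whole table passed either, so the background share of calls was 0.0%. At an unadjusted p under 0.05, 19 members (34.5%) were higher in the mutants and none was lower, beside 9.17% of all genes higher and 3.88% lower. DESeq2 on the same line totals called 3 members higher, Wnt5a, Il17rd and Ube2e2 (5.77% of the 52 members it gave an adjusted p; background 2.16%). The limma-voom fit of the 12 libraries, with the line as a random block, called 2 higher, Ube2e2 and Il17rd (3.85% of 52; background 1.17%). Its estimated within-line correlation was -0.00251, so that fit treated the libraries of a line nearly as independent samples, and its p-values rest on that. Neither tool called a member lower (background 0.476% in DESeq2 and 0.236% in limma-voom).

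**Figure D1:**
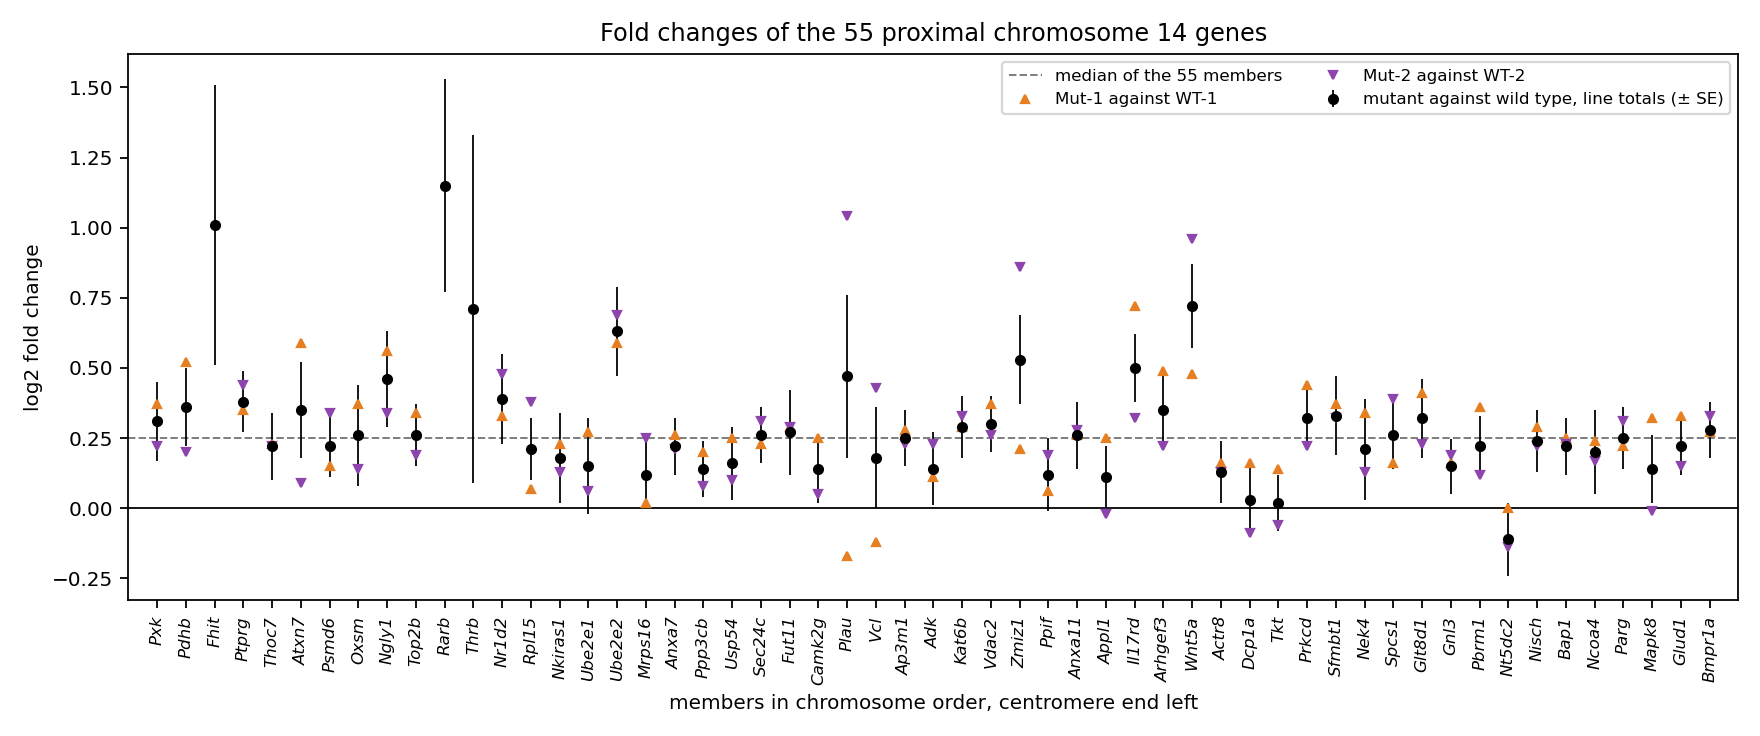
Log2 fold change of each of the 55 genes, mutant over wild type, in the order of their positions on chromosome 14 from the centromere side; line totals and both same-number line pairs are drawn as separate symbols, with the SE of the line-total value as a bar. All but Nt5dc2 (-0.11) lie at or above 0 in the line totals, with a median of 0.25.

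The same picture held library by library. For each library the median over the members of log2(CPM + 0.5), centred on the gene's mean over the 12 libraries, was set against the same median over the other autosomes; 52 members had the mean of 5 CPM this used. This shift was 0.13, 0.19 and 0.20 in the Mut-1 libraries and 0.06, 0.08 and 0.19 in the Mut-2 libraries, against -0.13, -0.14 and -0.09 in the WT-1 libraries and -0.21, -0.11 and -0.08 in the WT-2 libraries. All 6 mutant libraries were above 0 and all 6 wild-type libraries below it, so the genotypes did not overlap. The mean over lines was 0.27 higher in the mutants (1.21-fold), by 0.29 for Mut-1 over WT-1 and by 0.24 for Mut-2 over WT-2. No p is given for this summary, because the members were chosen with results known.

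**Figure D2:**
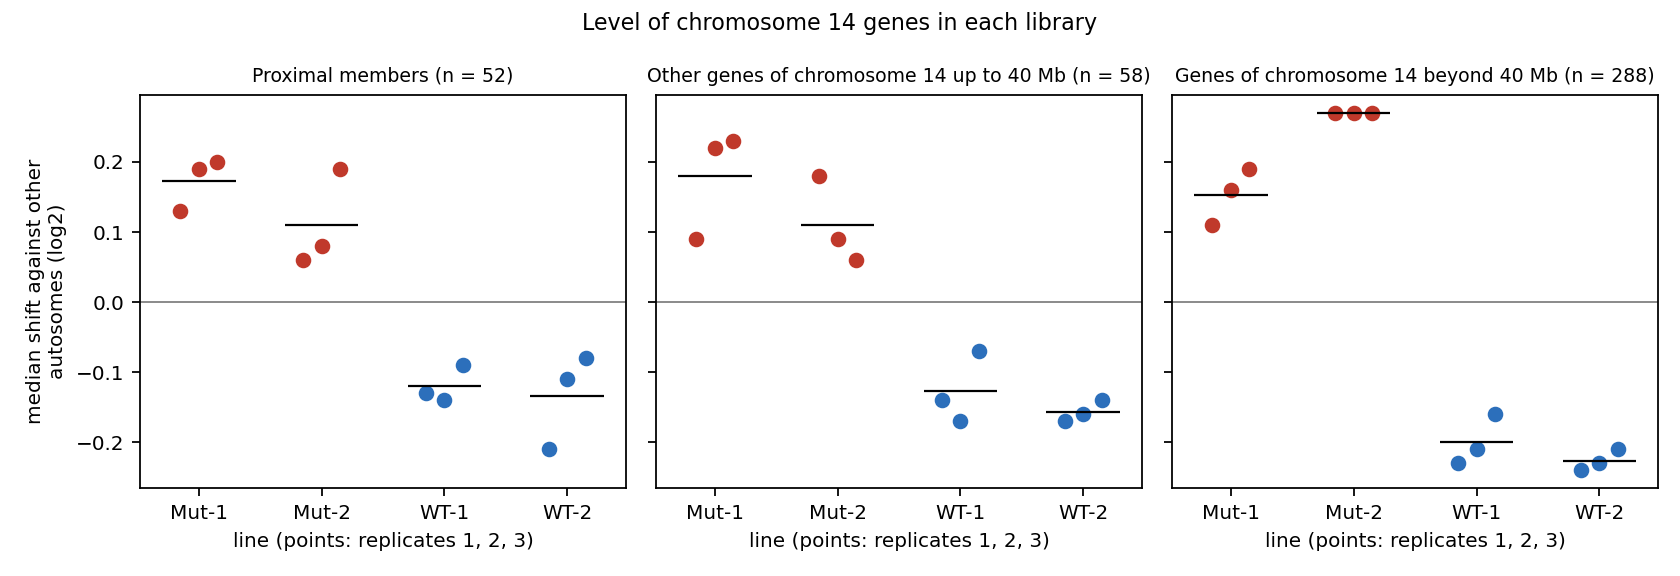
Median shift of each library (log2, relative to the other autosomes) for the members, for the other genes of chromosome 14 up to 40 Mb and for the genes beyond 40 Mb; points are libraries and bars their mean, grouped by line with the mutant lines on the left. For the members, mutant libraries lie between 0.06 and 0.20 and wild-type libraries between -0.21 and -0.08.

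The other proximal genes had a like difference. The 137 other tested genes of chromosome 14 up to 40 Mb had a median log2 fold change of 0.27 in the line totals (1.20-fold), with 80.3% of them higher in the mutants. The 421 tested genes beyond 40 Mb had a median of 0.43 (1.35-fold), with 94.5% higher, and the 16931 tested genes of the other autosomes had a median of -0.01. By chromosome, the median was 0.37 for chromosome 14 and lay between -0.14 (chromosome 8) and 0.05 (chromosome 10) for the other autosomes. The members' median was close to that of the other proximal genes and below that of the distal genes; no test of these gaps was made.

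By value, the gap between the members and the distal genes was larger in Mut-2 than in Mut-1. In the Mut-2 libraries the shift of the 288 genes beyond 40 Mb was 0.27 in each, which was 0.22, 0.19 and 0.08 above the members' shift of the same library. In the Mut-1 libraries both shifts were nearly equal, with differences of -0.02, -0.02 and -0.01. In the wild-type libraries the distal genes lay 0.03 to 0.13 below the members. Along the chromosome, the windows that hold the members (0 to 20, 20 to 30 and 30 to 40 Mb) differed by 0.28, 0.30 and 0.18 for Mut-2 over WT-2, and the 5 windows beyond (40 to 50, 50 to 60, 60 to 70 and 70 to 80 Mb, and 80 Mb to the end) differed by 0.42, 0.55, 0.51, 0.54 and 0.43. For Mut-1 over WT-1 the values were 0.42, 0.24 and 0.29 in the members' windows and 0.39, 0.34, 0.29, 0.41 and 0.45 in the 5 beyond. In the first and the last of those 5 windows the pairs were close to each other. The windows were set after the values were seen, and each held 25 to 97 genes.

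**Figure D3:**
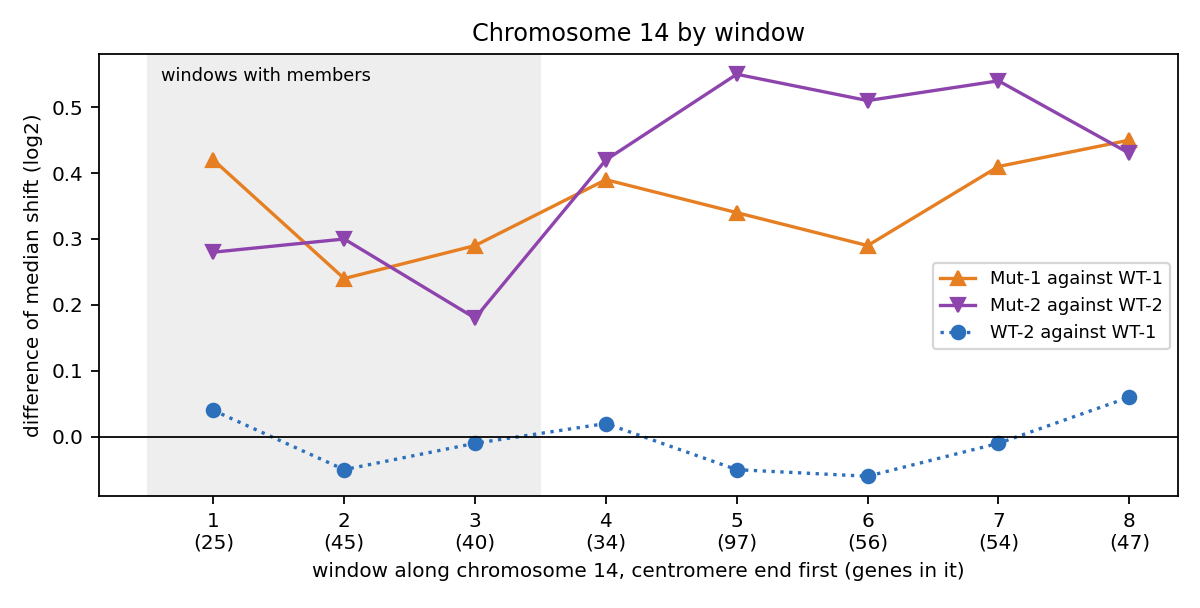
Difference of the median shift (log2) along chromosome 14 in 8 windows, for Mut-1 over WT-1, Mut-2 over WT-2 and WT-2 over WT-1; the shaded windows hold the members. In those windows the Mut-2 line lies at 0.18 to 0.30, and it is at 0.42 to 0.55 in the windows beyond them, whereas the wild-type pair stays near 0.

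Each mutant line showed the difference by itself, here set against the wild-type line of the same number. Apart from that number, the labels do not tie these lines to each other. In the fit of the 12 libraries, in which 52 members were tested (Fhit, Rarb and Thrb were too low), 49 of 52 were higher in Mut-1 than in WT-1, with a median of 0.26, and 47 of 52 were higher in Mut-2 than in WT-2, with a median of 0.22. Over all 16533 genes of that fit, 53.1% and 49.9% were higher in these pairs. In both pairs at once 45 of 52 members were higher. The share of all genes higher in both pairs was not counted, so this count has no background beside it. Between lines of one genotype the members were spread around 0: 19 of 52 had the greater value in Mut-2 when set against Mut-1 (median -0.06; background 52.9%), and 23 of 52 had it in WT-2 when set against WT-1 (median -0.02; background 51.8%).

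A member's value in one pair said little of its value in the other. Across the 52 members the log2 fold changes of the 2 same-number pairs had a Pearson r of -0.00591 and a Spearman correlation of 0.0798. This is a description across genes that share libraries within each pair. The SE of a single value was 0.10 to 0.32, beside members' quartiles of 0.19 to 0.36 (first pair) and 0.13 to 0.32 (second pair). The correlation thus cannot tell measurement spread from members that differ between pairs. In Mut-1 against WT-1 no member passed in the edgeR quasi-likelihood test on libraries, beside 0.296% of genes called higher and 0.0302% lower. At an unadjusted p under 0.05, 19 members were higher and none lower (background 6.47% and 4.81%), and DESeq2 called 3 higher, Arhgef3, Il17rd and Ube2e2 (background 1.04%). In Mut-2 against WT-2, 1 of 52 members passed, Zmiz1, which was higher (background 0.732% higher and 0.194% lower). At an unadjusted p under 0.05, 13 members were higher and none lower (background 9.67% and 5.45%), and DESeq2 called 3 higher, Plau, Ube2e2 and Zmiz1 (background 2.7%). No member passed in both pairs in edgeR (background 0.0363% higher).

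Lines of one genotype gave no calls among the members. In Mut-2 against Mut-1 none passed in edgeR (background 0.0484% higher and 0.212% lower) or was called higher in DESeq2 (background 0.144%), and at an unadjusted p under 0.05, 3 were higher and 2 lower (background 3.24% and 3.65%). In WT-2 against WT-1 none passed in edgeR (background 0.0181% higher and 0.0% lower) or was called higher in DESeq2 (background 0.201%), and at an unadjusted p under 0.05, 1 was higher and 1 lower (background 4.17% and 3.44%). The difference between the 2 mutant-over-wild-type pairs was itself tested as an interaction in edgeR, which no member passed (background 0.0242% higher and 0.0484% lower); at an unadjusted p under 0.05, 2 were higher in the second pair and none lower (background 3.93% and 4.15%).

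Il17rd, Ube2e2, Wnt5a, Zmiz1 and Ptprg had the smallest unadjusted p-values of the 55 in the line totals. Il17rd (also known as Sef) is a transmembrane antagonist of FGF signalling, the pathway that pushes embryonic stem cells towards differentiation. It stood at 83.4, 105 and 88.4 CPM (Mut-1) and 74.0, 79.4 and 90.8 CPM (Mut-2), against 51.3, 53.1 and 63.1 CPM (WT-1) and 57.6, 62.1 and 75.8 CPM (WT-2). The genotypes overlapped only between the lowest Mut-2 library and the highest WT-2 library. The line means were 85.9 ± 6.94 CPM in mutants and 60.6 ± 6.00 CPM in wild type (SD, n = 2 lines each). The log2 fold change was 0.50 (SE 0.12, edgeR adjusted p = 0.214). In limma-voom the value was 0.52 (SE 0.11, adjusted p = 0.0279), and in DESeq2 0.50 (SE 0.15, adjusted p = 0.0459).

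Ube2e2, a ubiquitin-conjugating enzyme, had 17.4, 15.2 and 16.6 CPM (Mut-1) and 15.3, 16.5 and 13.8 CPM (Mut-2), against 9.83, 10.2 and 12.7 CPM (WT-1) and 8.93, 10 and 9.25 CPM (WT-2). Every mutant library was above every wild-type library. The log2 fold change was 0.63 in the line totals (SE 0.16, edgeR adjusted p = 0.227), 0.64 in limma-voom (SE 0.11, adjusted p = 0.0159) and 0.62 in DESeq2 (adjusted p = 0.0489). Its size was alike in both pairs, 0.59 for Mut-1 over WT-1 and 0.69 for Mut-2 over WT-2.

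Wnt5a, a secreted ligand of the non-canonical Wnt pathways that fibroblasts also make, was less even. It had 50.3, 22.6 and 21.3 CPM (Mut-1) and 31.7, 49.1 and 35.6 CPM (Mut-2), against 17.9, 21.5 and 28.4 CPM (WT-1) and 15.3, 26.2 and 18.4 CPM (WT-2). The genotypes overlapped, and 2 of the Mut-1 libraries lay within the wild-type range. The line totals gave a log2 fold change of 0.72 (SE 0.15, edgeR adjusted p = 0.181), and DESeq2 0.71 (SE 0.18, adjusted p = 0.00557). Its highest values were in Mut-1 replicate 1 and Mut-2 replicate 2, the libraries with the highest feeder shares (2.08% and 1.91% of counts). Mut-2 replicate 1, with the next highest share (1.81%), was at 31.7 CPM, below Mut-2 replicate 3 (1.11%) at 35.6 CPM. With the feeder share as a covariate in limma-voom the log2 fold change of Wnt5a was 0.26 (adjusted p = 0.749). The feeder share was higher in both mutant lines, so this covariate overlaps with genotype.

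Zmiz1, a PIAS-like transcriptional coactivator, was the member called in Mut-2 against WT-2. Its levels were 81.2, 68.4 and 79.1 CPM (Mut-1) and 98.8, 98.9 and 93.1 CPM (Mut-2), against 67.7, 70.2 and 60.1 CPM (WT-1) and 45.0, 66.8 and 48.0 CPM (WT-2). The Mut-2 libraries were the highest of all 12, whereas Mut-1 overlapped WT-1. The log2 fold change was 0.86 for Mut-2 over WT-2 (SE 0.15, edgeR adjusted p = 0.0199) and 0.21 for Mut-1 over WT-1 (SE 0.14, adjusted p = 0.568), and the difference between these, 0.65 (SE 0.20), did not pass (adjusted p = 0.484). Without WT-2 replicate 1, WT-2 replicate 3 or Mut-2 replicate 2 the call was lost, though the log2 fold change was 0.74, 0.79 and 0.83 in these fits (adjusted p = 0.104, 0.0971 and 0.135). With the 3 feeder-richest libraries left out, Mut-2 was a single library, assumed to vary like the other lines, and the value was 0.79 (SE 0.22, adjusted p = 0.261).

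**Figure D4:**
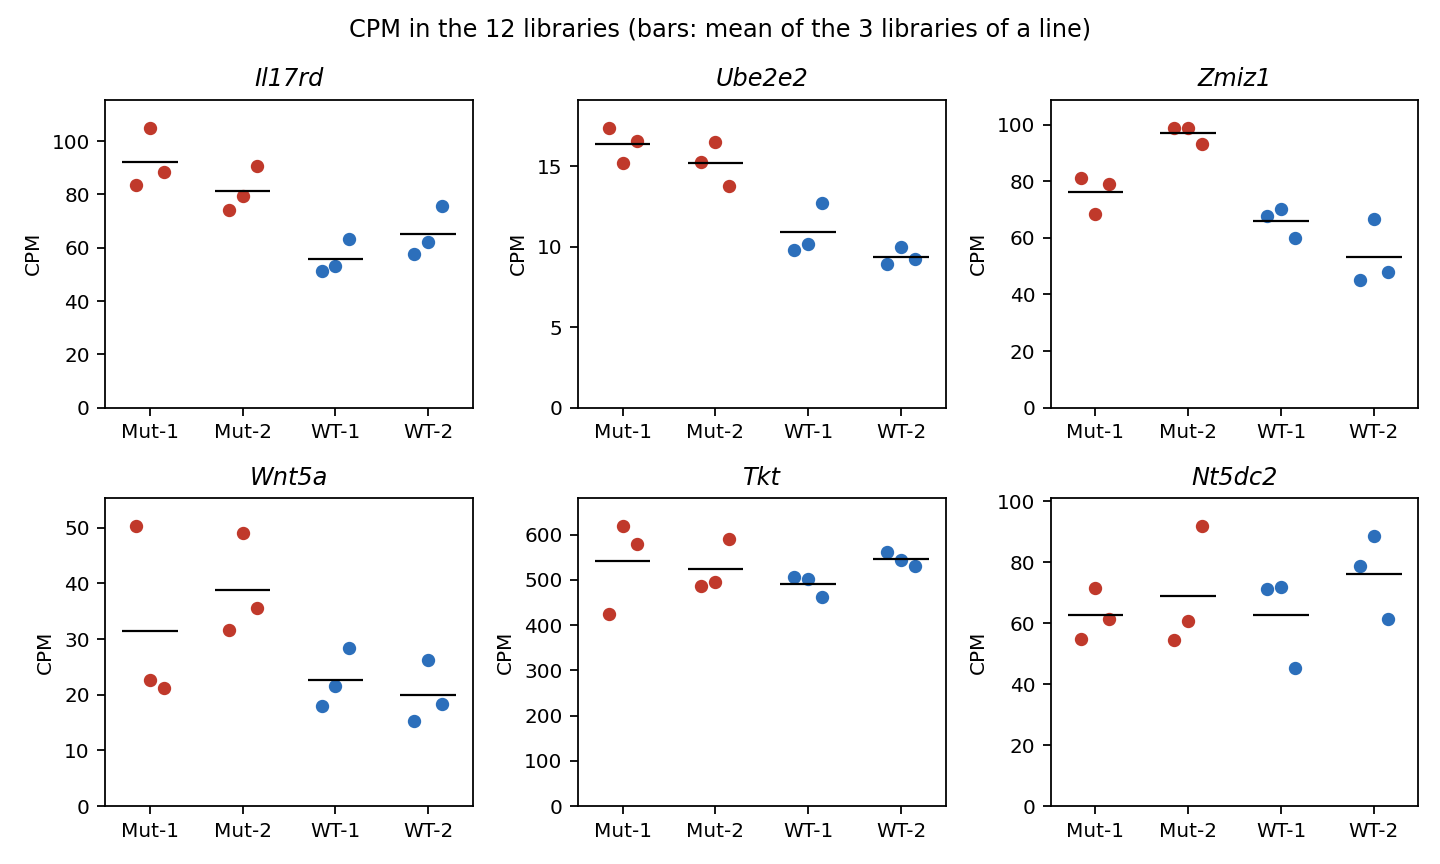
CPM in each library of 6 members (one panel each, linear axes from 0), by line with the mutant lines on the left; bars are the mean of the 3 libraries. The genotypes do not overlap for Ube2e2, whereas they overlap for Il17rd, Zmiz1, Wnt5a, Tkt and Nt5dc2.

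To let the promoters of these members be compared, 300-base windows (250 bases before the start and 50 after it) were taken from the RefSeq promoter table on GRCm38.p6. Of the 55 members 47 were matched; Wnt5a was not. The windows of the 4 matched members among the 5 with the smallest unadjusted p are shown, with Pbrm1, whose start faces that of Gnl3, and Tkt, whose level hardly differed. Each is written 5′ to 3′ on the gene's own strand, and capitals mark the GC box GGGCGG in either orientation.
Il17rd, chr14:27038751-27039050, plus strand: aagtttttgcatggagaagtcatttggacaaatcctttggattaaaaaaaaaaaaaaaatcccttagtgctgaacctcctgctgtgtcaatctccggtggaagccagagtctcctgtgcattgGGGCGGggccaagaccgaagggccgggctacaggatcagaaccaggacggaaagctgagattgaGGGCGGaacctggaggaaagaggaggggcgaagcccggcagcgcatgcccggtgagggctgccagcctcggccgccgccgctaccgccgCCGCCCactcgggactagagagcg
Ube2e2, chr14:18893722-18894021, minus strand: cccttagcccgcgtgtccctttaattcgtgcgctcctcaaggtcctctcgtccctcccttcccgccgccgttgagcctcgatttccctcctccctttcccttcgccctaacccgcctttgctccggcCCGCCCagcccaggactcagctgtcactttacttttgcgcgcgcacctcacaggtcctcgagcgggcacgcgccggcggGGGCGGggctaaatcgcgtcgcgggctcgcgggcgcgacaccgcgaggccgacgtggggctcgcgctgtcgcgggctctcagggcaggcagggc
Zmiz1, chr14:25458935-25459234, plus strand: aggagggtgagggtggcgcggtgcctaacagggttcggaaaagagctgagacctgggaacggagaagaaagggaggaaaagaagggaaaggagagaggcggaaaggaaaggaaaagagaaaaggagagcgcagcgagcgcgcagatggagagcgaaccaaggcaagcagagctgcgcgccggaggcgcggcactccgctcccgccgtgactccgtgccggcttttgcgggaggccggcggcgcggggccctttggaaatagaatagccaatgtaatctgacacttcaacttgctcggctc
Ptprg, chr14:11553303-11553602, plus strand: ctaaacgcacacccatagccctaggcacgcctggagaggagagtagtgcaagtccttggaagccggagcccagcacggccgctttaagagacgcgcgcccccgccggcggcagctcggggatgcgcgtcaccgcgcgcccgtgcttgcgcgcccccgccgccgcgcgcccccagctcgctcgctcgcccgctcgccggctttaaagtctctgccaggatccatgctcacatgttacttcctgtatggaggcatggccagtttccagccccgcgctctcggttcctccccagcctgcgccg
Pbrm1, chr14:31018888-31019187, plus strand: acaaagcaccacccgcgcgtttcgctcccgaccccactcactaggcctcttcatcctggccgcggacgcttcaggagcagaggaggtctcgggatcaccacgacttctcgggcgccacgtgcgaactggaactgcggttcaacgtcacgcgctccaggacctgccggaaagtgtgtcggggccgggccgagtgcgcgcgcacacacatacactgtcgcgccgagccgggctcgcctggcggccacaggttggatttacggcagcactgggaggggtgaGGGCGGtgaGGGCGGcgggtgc
Tkt, chr14:30548881-30549180, plus strand: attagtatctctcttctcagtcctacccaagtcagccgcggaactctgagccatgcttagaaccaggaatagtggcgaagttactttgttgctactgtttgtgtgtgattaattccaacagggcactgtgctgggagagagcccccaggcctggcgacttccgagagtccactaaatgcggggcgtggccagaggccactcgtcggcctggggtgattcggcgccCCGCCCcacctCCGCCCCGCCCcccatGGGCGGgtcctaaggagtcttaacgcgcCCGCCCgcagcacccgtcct

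The GC box was present 3 times in the window of Il17rd, 2 times in those of Ube2e2 and Pbrm1 and 5 times in that of Tkt, counting overlapping matches, and it was not in the windows of Zmiz1 and Ptprg. Among the 47 member windows 36 held a GC box (76.6%), beside 35.9% of 27025 windows of the table. The 27025 windows were not limited to expressed genes, so the motif and CpG values do not set members beside genes of like level. Only the first listed window of each symbol was used. For some members, Rarb and Kat6b among them, it lies away from the outer start of the annotated gene. The member windows were rich in CpG, with a median of 25 CpG dinucleotides and 62.7% G and C, beside 7 CpG and 52.7% over all windows. The ETS motif CCGGAAG was in 19.1% of member windows and in 9.12% of all. The NRF1 motif was in 8.51% and 4.78%, the E-box CACGTG in 8.51% and 7.24%, CCAAT in 36.2% and 37.9%, and TATAAA in 4.26% and 14.2%. All were searched on both strands. The 36 members with a GC box had a median log2 fold change of 0.25 (range -0.11 to 1.01), and the 11 without one a median of 0.25 (range 0.03 to 1.15); no test was made.

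All 13 signalling genes were higher in the mutants, from 0.11 to 0.72 (log2 fold change), and their median was 0.24. Besides Wnt5a and Il17rd, the receptor-type tyrosine phosphatase Ptprg ranged from 62.1 to 89.5 CPM in mutant libraries (median 73.6) and from 47.0 to 64.8 CPM in wild-type libraries (median 55.8), with a log2 fold change of 0.38 (edgeR adjusted p = 0.253). Nisch, an integrin-binding protein and the most abundant gene of the group, ranged from 356 to 434 CPM in mutant libraries (median 398) and from 290 to 353 CPM in wild-type libraries (median 332), without overlap. Its log2 fold change was 0.24 (edgeR adjusted p = 0.385). At the low end was Appl1, an adaptor of early endosomes, at 78.2 to 97.4 CPM in mutant libraries (median 93.3) and 72.0 to 96.9 CPM in wild-type libraries (median 82.5), with a log2 fold change of 0.11. The ranges of Appl1 overlapped almost fully.

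The BMP receptor Bmpr1a, through which BMP in serum acts on embryonic stem cells, had 87.3, 101 and 93.3 CPM (Mut-1) and 86.0, 95.7 and 104 CPM (Mut-2), against 79.5, 78.7 and 76.3 CPM (WT-1) and 67.6, 82.1 and 77.7 CPM (WT-2). All mutant libraries were above all wild-type libraries, by a log2 fold change of 0.28 in the line totals (SE 0.10, edgeR adjusted p = 0.312). Arhgef3, a guanine nucleotide exchange factor, ranged from 19.6 to 23.7 CPM in mutant libraries and from 14.4 to 18 CPM in wild-type libraries, again without overlap (log2 fold change 0.35). The other signalling genes were the kinases Prkcd, Mapk8, Camk2g and Nek4, the calcineurin subunit Ppp3cb and the NF-kappa-B regulator Nkiras1, whose log2 fold changes lay between 0.14 and 0.32. Bmpr1a and Arhgef3 were picked for display after their values were seen.

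The 9 chromatin and transcription regulators were all higher, with a median of 0.26 and a range of 0.13 to 0.53. Kat6b, a histone acetyltransferase and the most abundant of them, ranged from 275 to 407 CPM in mutant libraries (median 333) and from 181 to 317 CPM in wild-type libraries (median 282), a log2 fold change of 0.29 (SE 0.11, edgeR adjusted p = 0.343). Actr8, an actin-related subunit of the INO80 remodeller, ranged from 39.6 to 52.2 CPM in mutant libraries (median 45.8) and from 32.8 to 52.1 CPM in wild-type libraries (median 42.9), a log2 fold change of 0.13. Both genes overlapped between genotypes. Pbrm1, a targeting subunit of the PBAF remodeller, and Bap1, a histone deubiquitinase, each had 0.22, the SAGA subunit Atxn7 had 0.35, the topoisomerase Top2b 0.26, the MBT-domain protein Sfmbt1 0.33 and the coactivator and ferritin receptor Ncoa4 0.20.

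Of the 3 nuclear receptors, the circadian repressor Nr1d2 (Rev-erb beta) ranged from 22.3 to 39.8 CPM in mutant libraries (median 24.6) and from 15.3 to 27.5 CPM in wild-type libraries (median 18.6), a log2 fold change of 0.39 (SE 0.16, edgeR adjusted p = 0.344). The retinoic acid receptor Rarb and the thyroid hormone receptor Thrb were barely detected, at means of 0.483 and 0.259 CPM over the 12 libraries. Their log2 fold changes of 1.15 (SE 0.38) and 0.71 (SE 0.62) rest on few counts, and the end of Rarb overlaps the far more abundant Top2b by 4624 bases on the opposite strand. With Fhit, these were the 3 members under 1 CPM.

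In the group of ubiquitin, proteasome and deglycosylation genes all 5 were higher, with a median of 0.22. Psmd6, a subunit of the proteasome's regulatory particle, ranged from 121 to 195 CPM in mutant libraries (median 165) and from 100 to 143 CPM in wild-type libraries (median 139), a log2 fold change of 0.22. Ube2e1, the neighbour and paralog of Ube2e2, had a smaller value: it ranged from 7.67 to 11.3 CPM in mutant libraries (median 10.3) and from 7.42 to 10.2 CPM in wild-type libraries (median 9.03), a log2 fold change of 0.15 (SE 0.17, edgeR adjusted p = 0.752). The difference between Ube2e1 and Ube2e2 was not tested, and reads common to these related sequences may be split between them. The deubiquitinase-family gene Usp54 had 0.16, and Ngly1, which removes N-glycans from misfolded proteins, had 0.46.

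The 11 genes of mitochondria and metabolism had a median of 0.22, with 10 of 11 higher, and held the member with the smallest difference, Tkt. Pdhb, a subunit of the pyruvate dehydrogenase complex that feeds pyruvate carbon into the citric acid cycle, ranged from 213 to 375 CPM in mutant libraries (median 241) and from 164 to 262 CPM in wild-type libraries (median 189), a log2 fold change of 0.36 (SE 0.14, edgeR adjusted p = 0.330). Tkt, transketolase of the pentose phosphate pathway, had 424, 619 and 580 CPM (Mut-1) and 486, 496 and 590 CPM (Mut-2), against 506, 502 and 463 CPM (WT-1) and 562, 544 and 530 CPM (WT-2). The genotypes overlapped throughout, and the log2 fold change was 0.02 (SE 0.10, edgeR adjusted p = 0.956), with either sign when single libraries or lines were left out (-0.05 to -0.01 among those that turned it).

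Nt5dc2 was the member with the lower value in the mutants, and that sign was not stable either. It had 54.7, 71.4 and 61.5 CPM (Mut-1) and 54.4, 60.7 and 91.8 CPM (Mut-2), against 71.2, 71.7 and 45.3 CPM (WT-1) and 78.8, 88.6 and 61.2 CPM (WT-2). The log2 fold change was -0.11 (SE 0.13, edgeR adjusted p = 0.772), and it was 0.18 once the 3 feeder-richest libraries were left out. The outer-membrane channel Vdac2 ranged from 390 to 507 CPM in mutant libraries and from 342 to 389 CPM in wild-type libraries, just without overlap (log2 fold change 0.30, edgeR adjusted p = 0.280). Glutamate dehydrogenase (Glud1) had 0.22, poly(ADP-ribose) glycohydrolase (Parg) 0.25, the mitochondrial fatty acid synthase enzyme Oxsm 0.26, adenosine kinase (Adk) 0.14, the mitochondrial ribosomal protein Mrps16 0.12 and cyclophilin D (Ppif) 0.12. Fhit, a hydrolase of diadenosine polyphosphates, had 1.01 (SE 0.50) at a mean of 0.386 CPM.

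The 4 genes of the ribosome, nucleolus and RNA had a median of 0.18. Rpl15, a protein of the large ribosomal subunit, was the highest of all members, also per length (449 CPM per kb of exon), and ranged from 925 to 1380 CPM in mutant libraries (median 1230) and from 919 to 1130 CPM in wild-type libraries (median 1020), a log2 fold change of 0.21. Thoc7, a subunit of the THO complex of mRNA export, was the most even, at 29.0, 30.6 and 29.7 CPM (Mut-1) and 29.9, 29.9 and 28.0 CPM (Mut-2), against 26.8, 25.8 and 23.6 CPM (WT-1) and 24.9, 24.2 and 26.2 CPM (WT-2). Every mutant library of Thoc7 was above every wild-type library, at a log2 fold change of 0.22 (SE 0.12, edgeR adjusted p = 0.484). Dcp1a, an activator of mRNA decapping, ranged from 65.9 to 87.6 CPM in mutant libraries (median 71.5) and from 63.8 to 82.7 CPM in wild-type libraries (median 72.3), and its log2 fold change of 0.03 turned to between -0.11 and -0.01 when Mut-1 or 1 of 2 single libraries was left out. The nucleolar GTP-binding protein Gnl3 had 0.15.

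The 8 genes of membrane traffic, secretion and glycosylation had the narrowest range, 0.22 to 0.32, with a median of 0.26. Anxa7, a calcium-dependent membrane-binding protein, ranged from 142 to 179 CPM in mutant libraries (median 157) and from 128 to 150 CPM in wild-type libraries (median 133), a log2 fold change of 0.22. Glt8d1, a glycosyltransferase-family protein, ranged from 21.7 to 31.3 CPM in mutant libraries (median 26.9) and from 18.6 to 25.2 CPM in wild-type libraries (median 20.7), a log2 fold change of 0.32 (edgeR adjusted p = 0.405). Between these values lay the signal peptidase subunit Spcs1 (0.26), the AP-3 adaptor subunit Ap3m1 (0.25), the cargo-binding COPII subunit Sec24c (0.26), the annexin Anxa11 (0.26), the fucosyltransferase Fut11 (0.27) and the PX-domain protein Pxk (0.31).

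Both genes of adhesion and extracellular proteolysis, which fibroblasts also express, had values of opposite sign in the 2 pairs of lines. Vinculin (Vcl), which links adhesion sites to actin, ranged from 39.5 to 86.7 CPM in mutant libraries (median 60.6) and from 41.9 to 68.7 CPM in wild-type libraries (median 52.2). Its log2 fold change was -0.12 for Mut-1 over WT-1 and 0.43 for Mut-2 over WT-2. The urokinase gene Plau ranged from 3.54 to 12.4 CPM in mutant libraries (median 9.12) and from 4.10 to 7.55 CPM in wild-type libraries (median 6.11), with -0.17 for Mut-1 over WT-1 and 1.04 for Mut-2 over WT-2. The difference between the pairs did not pass for either gene (Plau 1.20, SE 0.41, edgeR adjusted p = 0.549; Vcl 0.54, SE 0.27, adjusted p = 0.649).

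In the count of genes without overlap between genotypes, 8 of 52 tested members (15.4%) had all 6 mutant libraries above all 6 wild-type libraries, beside a background of 1.41% of genes. These were Thoc7, Ube2e2, Ap3m1, Vdac2, Arhgef3, Spcs1, Nisch and Bmpr1a. None lay wholly below, beside 0.732% of genes. By position, the median log2 fold change in the line totals was 0.35 for the 7 members starting at 8 to 15 Mb, 0.33 for the 10 at 15 to 20 Mb, 0.22 for the 13 at 20 to 25 Mb, 0.31 for the 8 at 25 to 30 Mb and 0.22 for the 17 beyond. In Mut-2 over WT-2 the same 5 groups of tested members had medians of 0.22, 0.27, 0.25, 0.25 and 0.19. By level, the median in the line totals was 0.59 for the 6 members under 10 CPM, which include Fhit, Rarb and Thrb, 0.27 for the 20 between 10 and 50 CPM and 0.22 for the 29 at 50 CPM or more. In limma-voom, which did not test Fhit, Rarb and Thrb, these medians were 0.19, 0.27 and 0.24, so no order by level held in both.

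The subunits encoded on proximal chromosome 14 could be set beside partners of the same complex encoded elsewhere. For 13 members, 126 partner genes on other chromosomes were listed. The lists do not hold every subunit or regulator of each complex. The partners had a median log2 fold change of -0.08, with 31 higher (24.6%, beside 49.8% of all genes) and 95 lower in the mutants. The edgeR test called none of them, and none of the 18749 genes tested in that fit. In limma-voom 1 partner was called, the pyruvate dehydrogenase kinase Pdk1 (background 1.17% higher and 0.236% lower). The log2 fold change of Pdk1 in the line totals was -0.49. All 13 members were above the median of their own listed partners, and 12 of 13 were above every listed partner. The exception was Bap1 (0.22), since one gene of its list reached 0.24. Thus Psmd6 had 0.22 while the listed partner subunits of the proteasome's regulatory particle had a median of -0.13. Pdhb had 0.36 beside -0.10 for the listed genes of its complex together with listed kinases and a phosphatase that regulate it. Kat6b had 0.29 beside -0.16, Pbrm1 0.22 beside -0.17 and Thoc7 0.22 beside -0.09. For Rpl15 the values were 0.21 and -0.01, for Mrps16 0.12 and -0.13, for Actr8 0.13 and -0.14, for Atxn7 0.35 and -0.07, for Spcs1 0.26 and 0.02, for Ap3m1 0.25 and 0.01, and for Sec24c 0.26 and -0.05. The gaps between members and partners were not tested, and some gaps to single partners were small beside the SE. Sec24c had 0.26 (SE 0.10) and its partner Sec24d 0.22 (SE 0.15).

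**Figure D5:**
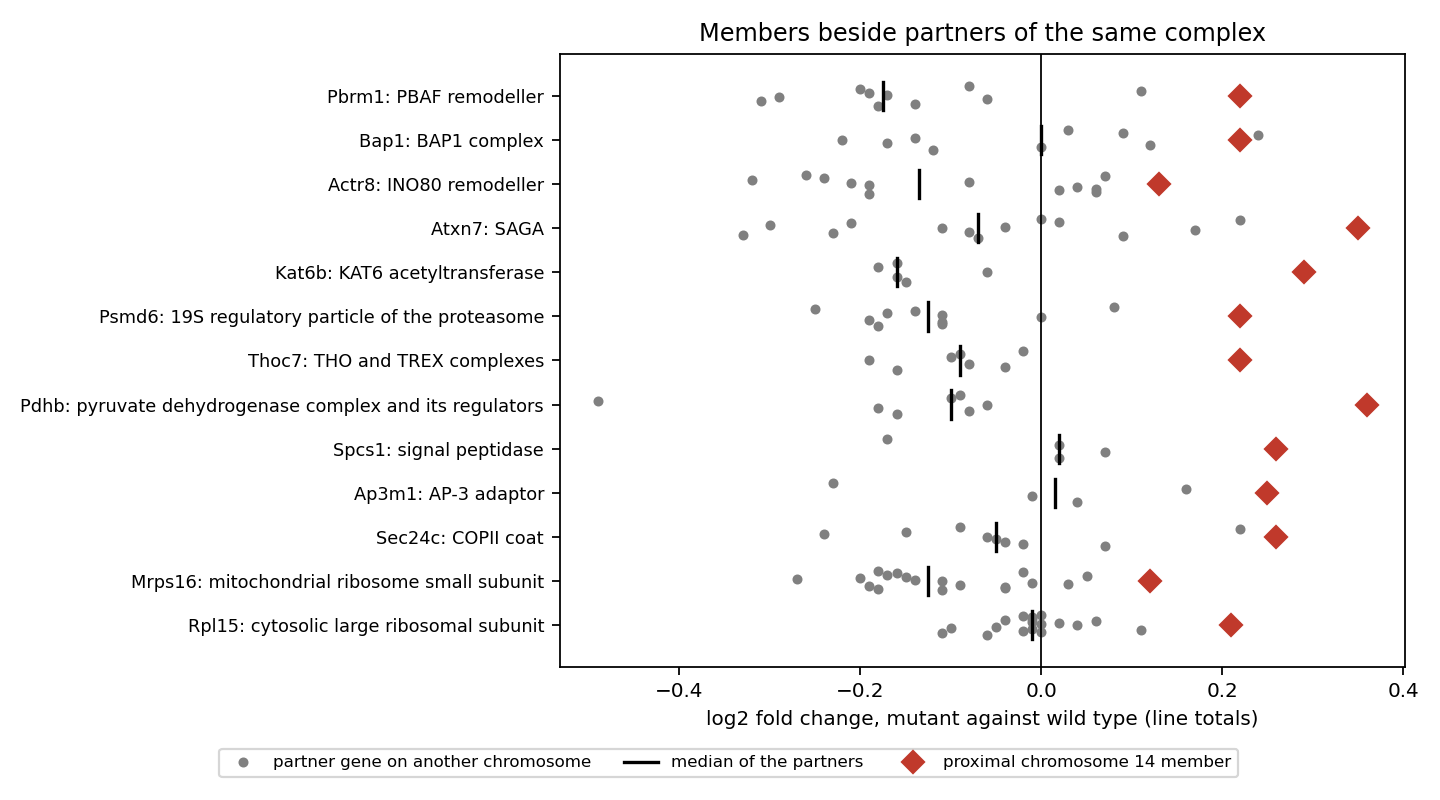
Log2 fold change, mutant over wild type, in line totals for 13 members (diamonds) and for listed partner genes on other chromosomes (dots, with their median as a bar). The members lie between 0.12 and 0.36, and 12 of the 13 are to the right of every listed partner.

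The feeder share was higher in both mutant lines than in both wild-type lines, but single libraries overlapped (0.963 to 2.08% against 0.884 to 1.19%). In the line totals all 36 feeder markers had positive values (median 0.58, log2), beside 49.8% of all genes. None was called by edgeR, but that fit called none of the 18749 genes tested. The highest feeder shares were in Mut-1 replicate 1, Mut-2 replicate 2 and Mut-2 replicate 1 (2.08, 1.91 and 1.81%). Within the mutants, Wnt5a was 0.71 higher (log2) in these 3 libraries than in the other 3, Plau 0.54, Oxsm 0.51 and Vcl 0.44, whereas the same difference was -0.53 for Gnl3, -0.43 for Glud1, -0.42 for Pdhb and -0.40 for Nt5dc2. More of the feeder-rich libraries were of Mut-2 than of Mut-1, so this split mixes feeder share with line. For Mut-2 over Mut-1 the log2 fold change was 0.30 for Wnt5a, 0.82 for Plau, -0.05 for Oxsm and 0.59 for Vcl. It was 0.03 for Gnl3, -0.09 for Glud1, -0.38 for Pdhb and 0.14 for Nt5dc2. With these 3 libraries left out, the members' median log2 fold change was 0.31, with 54 of 55 higher; Mut-2 was then 1 library, and the member below 0 was Oxsm (-0.16) in place of Nt5dc2 (0.18). In limma-voom the members' median was 0.25, with 51 of 52 higher (50.4% of all genes). With the feeder share as covariate it was 0.26, with 50 of 52 higher (49.6% of all genes). The part of feeder RNA in the members' difference was not tested. With the feeder share as covariate in limma-voom, Vdac2 was the member called (0.44, adjusted p = 0.0392; 1.92% of members, background 0.236%), while Il17rd had 0.63 (adjusted p = 0.0654) and Vcl -0.02.

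Several members lie so close together that their reads could not be told apart where they overlap, since the strand setting of the counting is not stated. Head to head, the annotated genes overlap by 413 bases for Thoc7 and Atxn7, 529 for Oxsm and Ngly1, 256 for Rpl15 and Nkiras1, 273 for Spcs1 and Glt8d1 and 15 for Gnl3 and Pbrm1, while Ap3m1 and Adk lie side by side without overlap. At their ends, Vcl and Ap3m1 overlap by 2235 bases and Nkiras1 and Ube2e1 by 1282. Among genes that share a start region, the log2 fold changes were 0.26 (SE 0.18) for Oxsm and 0.46 (SE 0.17) for Ngly1, 0.25 (SE 0.10) for Ap3m1 and 0.14 (SE 0.13) for Adk, and 0.21 for Rpl15 and 0.18 for Nkiras1; the differences within these pairs were not tested.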

How the data were processed

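For each of the 12 libraries the authors deposited raw counts per gene, as whole numbers without normalization. Tools named in the submitters' processing notes are HTSeq 0.6.0, HISAT2 2.1.0, Bowtie2 2.2.3 and bcl2fastq, with GRCm38 as the build; how each was used, which annotation was counted and whether strand was used were not given in the sources used here. Symbols were matched to GENCODE M21 (GRCm38): 29383 by name, 186 by an older symbol, 2023 not at all and 49 to several loci.

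Counts of the 3 libraries of each line were summed, and 2 mutant were compared with 2 wild-type line totals with edgeR 4.0.16 (quasi-likelihood test, TMM, filterByExpr, Benjamini-Hochberg at 0.05 over all 18749 genes tested; R 4.3.3). For pairs of lines, a single edgeR model held all 12 libraries in 4 groups (16533 genes). Standard errors were taken as the log2 fold change over the root of F. Alternatives were RLE, TMM without chromosome 14, no filter, DESeq2 1.42.0, limma-voom 3.58.1 with the line as random block, the feeder share as covariate, a replicate block and leaving out libraries or lines. The edgeR fits of line totals and of line pairs, and limma-voom without the covariate, were tested on simulated data. The other alternatives were not. The simulated counts were drawn independently at a fixed dispersion, with no effect shared by the libraries of a line. They therefore cannot show how the fits treat such line effects. Shifts used genes of at least 5 CPM and a pseudocount of 0.5. Poisson counting error per library ran from 0.745% (Rpl15) to 49.5% (Thrb) and was above 10% for the 3 members under 1 CPM; the spread between libraries of a line was larger than it for 53 members, but not for Thoc7 and Fhit.

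Members and lists were chosen with earlier results of these data known. Windows, neighbour pairs, motifs and the correlation between pairs were chosen after seeing values. Named per role were the most abundant member and those with the largest and smallest log2 fold change (at least 1 CPM), then every member lower in mutants, called members and the 5 smallest unadjusted p; others named in the text were chosen after their values were seen.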

Additional observations from a re-analysis of the deposited data

Results flagged for a closer look

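Of 44 tests of the highest or lowest library within a genotype (22 members, 6 libraries a genotype, Dixon's ratio of gap to range at its 95% value), 3 found a library that stood apart, and chance alone gives about 5%. Ube2e2 had 12.7 CPM in WT-1 replicate 3, above the other wild-type libraries at 8.93 to 10.2 CPM and still below the lowest mutant library at 13.8 CPM. Nr1d2 had 39.8 CPM in Mut-2 replicate 3, with the other mutant libraries at 22.3 to 28.3 CPM. Anxa7 had 150.0 CPM in WT-1 replicate 3, with the other wild-type libraries at 128 to 134 CPM.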

How the results depend on the processing

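The members' median difference between genotypes (0.25, log2) was positive under every alternative run: 0.26 with TMM factors from genes off chromosome 14, where the median of all genes was 0.01, 0.31 with the 3 feeder-richest libraries left out, and 0.23 to 0.30 when libraries or lines were left out. The median shift stayed at 0.25 to 0.29. Counts of calls depended on the tool: 0 members higher in edgeR, 3 in DESeq2, 2 in limma-voom and 1 with the feeder covariate, and 0 to 1 with a library or line left out (Wnt5a, adjusted p = 0.0464 in edgeR, without Mut-1 replicate 3). For Mut-1 against WT-1 (0 called) there was 1 without a filter, 1 with the replicate block (Il17rd, 0.73), 3 in DESeq2 and 0 to 2 with a library left out, with a median of 0.22 to 0.32. For Mut-2 against WT-2 (1 called) there were 3 without a filter, 3 in DESeq2, 1 with the block, 0 at a 2-fold minimum, 0 with the 3 feeder-richest libraries left out, which leaves Mut-2 as 1 library, and 0 to 2 with a library left out. For Mut-2 against Mut-1, 1 member (Vcl) was called without a filter, and the median turned to 0.04 with the 3 feeder-richest libraries left out and ranged from -0.12 to 0.04; for WT-2 against WT-1 it ranged from -0.04 to 0.02 with a library left out. The block changed no other count of members called. The labels tie no replicate number to a shared culture: same-number deviations from the line means correlated at -0.099 to 0.155 for Mut-1 with WT-1 and at 0.0977 to 0.59 for Mut-2 with WT-2, and 2 and 4 of 6 libraries correlated best with their own number. The correlations were 0.18 to 0.352 for Mut-1 with WT-2 (6 of 6 best), 0.176 to 0.429 for Mut-1 with Mut-2 (5 of 6), 0.114 to 0.485 for WT-1 with WT-2 (4 of 6) and -0.192 to -0.0582 for Mut-2 with WT-1 (0 of 6), a hint from the data that some lines share their numbering. Of all 55 members, those that changed sign were Oxsm (-0.02 with the feeder covariate, -0.16 with the 3 feeder-richest libraries left out), Ppif (-0.02 without line Mut-2), Nt5dc2 (0.08 with the feeder covariate, 0.18 with those 3 libraries left out, 0.04 without line WT-2; -0.23 to 0.04 over all libraries or lines left out), Vcl (-0.02 with the covariate, -0.16 without line Mut-2; -0.16 to 0.45), Tkt (-0.04 without line WT-1, -0.05, -0.01 and -0.03 without Mut-1 replicate 2, Mut-1 replicate 3 and Mut-2 replicate 3; -0.05 to 0.12) and Dcp1a (-0.11 without line Mut-1, -0.01 without WT-2 replicate 2 or Mut-1 replicate 2; -0.11 to 0.15). The cause was not tested. With 2 lines a genotype, line and genotype effects cannot be told apart beyond these 4 lines, and Fhit, Rarb and Thrb are too low for the 12-library fit.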
